A study of Mus musculus with 6 samples.

Results

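The cells described here are endothelial cells of the mouse kidney that carried Ehd3 transcripts and no Plvap transcripts, a combination used to pick out the capillaries inside the glomerulus. A barcode was taken when it held at least 1000 unique molecular identifiers (UMIs), at most 50% mitochondrial UMIs, at least 3 of the 7 endothelial genes Pecam1, Cdh5, Flt1, Kdr, Emcn, Egfl7 and Ptprb, and at least 1 UMI of Ehd3. It also had to hold 0 UMIs of Plvap, Ptprc, Col1a1 and C1qa, and Lrp2, Slc34a1, Slc5a12 and Slc22a6 together could make up at most 0.2% of its UMIs. Of the 76774 barcodes in the files, 50910 passed the limits on UMIs and mitochondrial share, 3292 of these passed the endothelial conditions, and 190 were Ehd3-positive and Plvap-negative. The Sham mice gave 34, 38 and 48 of these cells and the DOCA-salt mice 24, 28 and 18. Because 16 genes chose the cells, their levels are given only as a description.

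Single-cell RNA sequencing was run on kidneys of 3 Sham and 3 DOCA-salt mice, all male C57BL/6 of 8 to 10 weeks. DOCA-salt mice lost the left kidney and 1 week later received a subcutaneous pellet of 50 mg deoxycorticosterone acetate (DOCA, a mineralocorticoid) with 1% NaCl as drinking water for 21 days. Sham mice had sham surgery, no pellet and normal water, so the loss of 1 kidney, the steroid and the salt cannot be told apart. Each mouse is 1 sample, and the question put to these cells is how they differ between the hypertensive and the control kidneys.

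Glomerular endothelium lines the filtering capillaries of the kidney and, with the basement membrane and the podocytes, forms the filtration barrier. Its cells are perforated by fenestrae that in the adult mostly lack the diaphragm protein encoded by Plvap, whereas the fenestrae of peritubular capillaries carry it. The cells depend on vascular endothelial growth factor from podocytes, which they receive through the receptor encoded by Kdr. Ehd3 (ENSMUSG00000024065, GRCm39, chr17:74111129-74139089, + strand) encodes a protein of endocytic recycling that in the kidney is used as a marker of this endothelium.

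The kept barcodes had a median of 6998 to 10867 UMIs per mouse. The Ehd3-positive cells had medians of 9117.5, 6030.5 and 7116.5 UMIs in the Sham mice and of 8840.5, 12106.5 and 9304.5 in the DOCA-salt mice, and their UMIs summed to 202405 to 458769 per mouse. Pairs of libraries shared 33 to 69 cell barcodes, and none of the shared ones belonged to these cells. Levels below are CPM, the UMIs of a gene scaled to a total of 1000000 for the summed cells of 1 mouse, and a mean ± SD is over mice. A sum of 0 UMIs allows up to 6.54 to 14.8 CPM, depending on the mouse, and covers counting error only.

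The label held for the cells with 5 or more Ehd3 UMIs and not for those with 1. There were 117 cells with 5 or more Ehd3 UMIs, 18 with 2 to 4 and 55 with exactly 1, while 475 further barcodes met every other condition with 0 Ehd3 UMIs. Gata5, a transcription factor gene of glomerular endothelium, was found in 68 of the 117 cells (58.1%, at 123 CPM) and in 1 of the 55 (1.82%, at 1.23 CPM). Proximal tubule cells, which should lack it, held it in 1 of 1443 Sham and 0 of 657 DOCA-salt cells. Lpl, which encodes lipoprotein lipase, was found in 90.6% of the first class and in 23.6% of the second, and Plat, the gene of tissue plasminogen activator, in 99.1% and 56.4%. Igfbp3, an insulin-like growth factor binding protein gene, went the other way, with 2.56% of the first class (2.71 CPM) and 61.8% of the second (253 CPM). In Plvap-positive cells Igfbp3 was found in 63.5%. The 18 cells with 2 to 4 Ehd3 UMIs held Gata5 in 1 cell (5.56%), Igfbp3 in 55.6%, Plat in 88.9% and Lpl in 44.4%. The 1-UMI cells were not shallower, since the 55 held 810029 UMIs in all and the 117 held 1107844. Their arterial connexin gene Gja5 was detected in 25.5%, against 10.3% of the cells with 5 or more Ehd3 UMIs. The 190 cells are therefore called Ehd3-positive cells below, and values for the 117 cells are given for some genes only. Cells with fewer than 5 Ehd3 UMIs supply a large part of the summed UMIs, since the 18 cells held 211498 more and all 190 held 2129371.

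**Figure D1:**
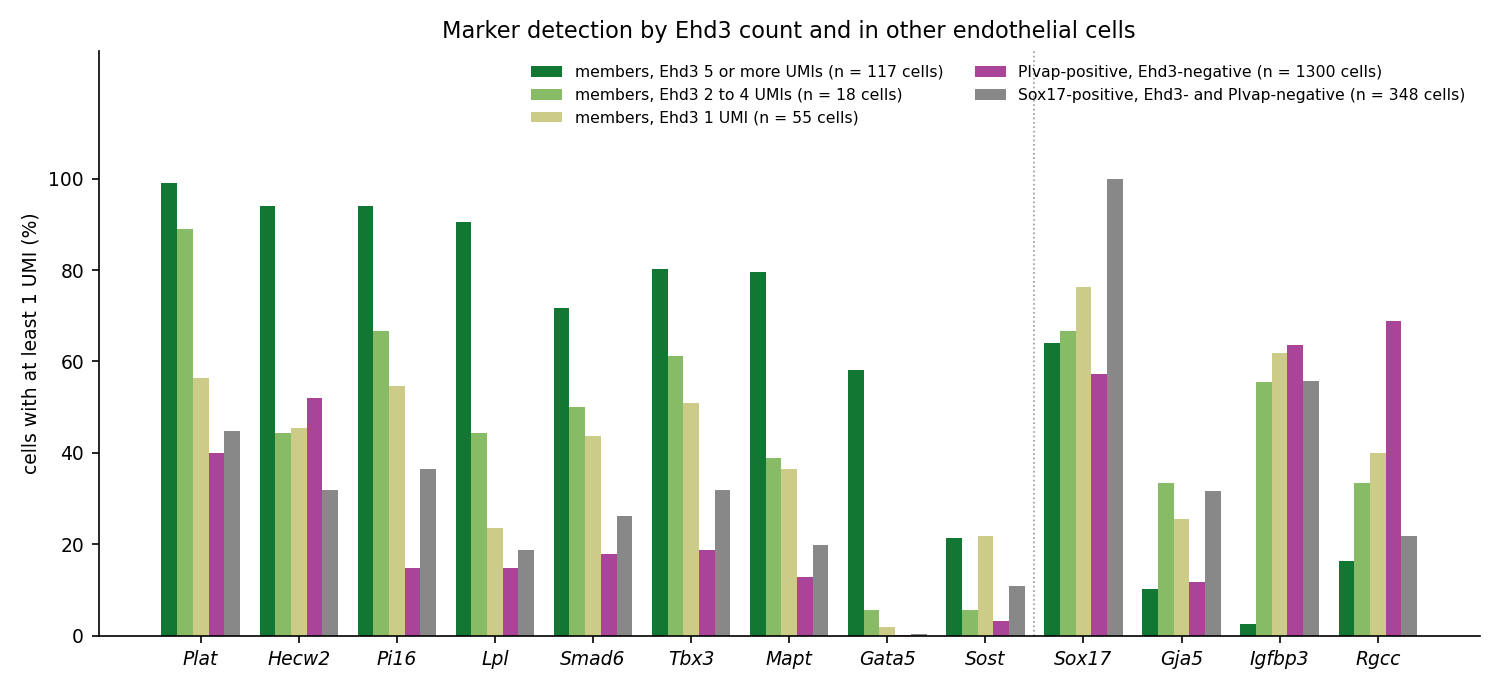
Percentage of cells with at least 1 UMI (y axis) of 13 endothelial genes (x axis), pooled over 6 mice, in the Ehd3-positive cells split by their Ehd3 UMIs and in the other endothelial cells of the same kidneys. Gata5 stands at 58.1% in cells with 5 or more Ehd3 UMIs and at 1.82% in cells with 1, and Igfbp3 at 2.56% and 61.8%.

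On the other side of the limit, 57 barcodes that met the remaining conditions had exactly 1 Plvap UMI and 1270 had 2 or more. Among them, 219 also had 5 or more Ehd3 UMIs, 50 of them from Sham and 169 from DOCA-salt mice. Gata5 was detected in 7.31% and Igfbp3 in 73.1% of these 219 cells. The pooled values were carried by the DOCA-salt cells, with Gata5 in 18.0% of the Sham and 4.14% of the DOCA-salt cells and Igfbp3 in 52.0% and 79.3%. The number of endothelial genes was a weak limit, since 146 of the 190 cells held all 7 and 4 held only 3.

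The Ehd3-positive cells differed from the other endothelium of the same kidneys in a set of genes that the rule did not use. They were set beside 1300 Plvap-positive, Ehd3-negative cells and 348 cells with Sox17, an arterial transcription factor gene, and neither Ehd3 nor Plvap. These groups were separated by measured genes, so the differences are described and not tested. Of 7556 genes with a mean of at least 20 CPM in either group, 603 were higher in the Ehd3-positive than in the Plvap-positive cells in 6 of 6 mice and 501 were lower in 6 of 6. With 5 CPM added to every level, 31 of the 603 were higher by more than 2 on the log2 scale and 30 of the 501 lower by more than 2.

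Among the glomerular markers, Plat was 1375 ± 403 CPM in Ehd3-positive cells (SD, n = 6 mice), 174 ± 29.2 in Plvap-positive and 158 ± 49.7 in Sox17-positive cells. The peptidase inhibitor gene Pi16 was 362 ± 67.4, 64.4 ± 31.1 and 173 ± 64.3 CPM in the same order. Lpl was 499 ± 168, 34.4 ± 6.37 and 49.4 ± 37.6 CPM, and Gata5 67.5 ± 34.6, 0.115 ± 0.281 and 0.301 ± 0.736 CPM. For Plat, Pi16, Lpl and Gata5, the lowest Ehd3-positive mouse lay above the highest mouse of both other groups. The receptor gene Kdr, part of the rule, was 1302 ± 206 CPM against 503 ± 105 and 113 ± 41.2. Smad6, an inhibitor of bone morphogenetic protein (BMP) signalling, was 179 ± 61.5 CPM against 38.1 ± 12.9 and 78.8 ± 32.9, and Mapt, the gene of the microtubule protein tau, 166 ± 38.9 CPM against 24.4 ± 5.47 and 36.2 ± 4.75. Sost, which encodes the Wnt inhibitor sclerostin, was lower and scattered, with 24.0 to 91.1 CPM in Ehd3-positive and 1.51 to 31.2 CPM in Plvap-positive cells, ranges that overlap.

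Further genes were chosen by the size of this difference, after their values were seen. Sema5a, a semaphorin gene of guidance signalling, was 362 ± 85.2 CPM in Ehd3-positive and 28.5 ± 17.6 CPM in Plvap-positive cells. Cyp4b1, a cytochrome P450 gene, was 421 ± 57.9 CPM against 77.8 ± 30.6. Bmper, whose product binds BMP ligands, was 27.4 ± 8.88 CPM against 1.73 ± 1.98, and the purinergic receptor gene P2ry1 52.9 ± 11.4 CPM against 8.34 ± 2.10. In the other direction, the urea transporter gene Slc14a1 was 24.3 ± 36.8 CPM in Ehd3-positive and 290 ± 108 CPM in Plvap-positive cells, and the water channel gene Aqp1 448 ± 479 CPM against 2033 ± 667. In the 117 cells with 5 or more Ehd3 UMIs these were lower still, at 2.07 ± 3.49 CPM for Slc14a1 and 34.7 ± 11.9 CPM for Aqp1.

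Of the 13 arterial markers, Efnb2, an ephrin gene, and Hey1, a Notch target, were higher in Ehd3-positive than in Plvap-positive cells in 6 of 6 mice, and the other 11 were higher in 1 to 5 of the 6. Fbln5, an elastic fibre gene, was 419 ± 204 CPM against 247 ± 114 in Plvap-positive and 868 ± 273 in Sox17-positive cells, and it was 44.3 ± 29.5 CPM in the 117 cells with 5 or more Ehd3 UMIs. Sox17 was 425 ± 165 CPM in all 190 cells, 182 ± 35.3 CPM in the 117 and 534 ± 89.9 CPM in Plvap-positive cells, and it was higher in Ehd3-positive than in Plvap-positive cells in 1 of 6 mice.

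**Figure D2:**
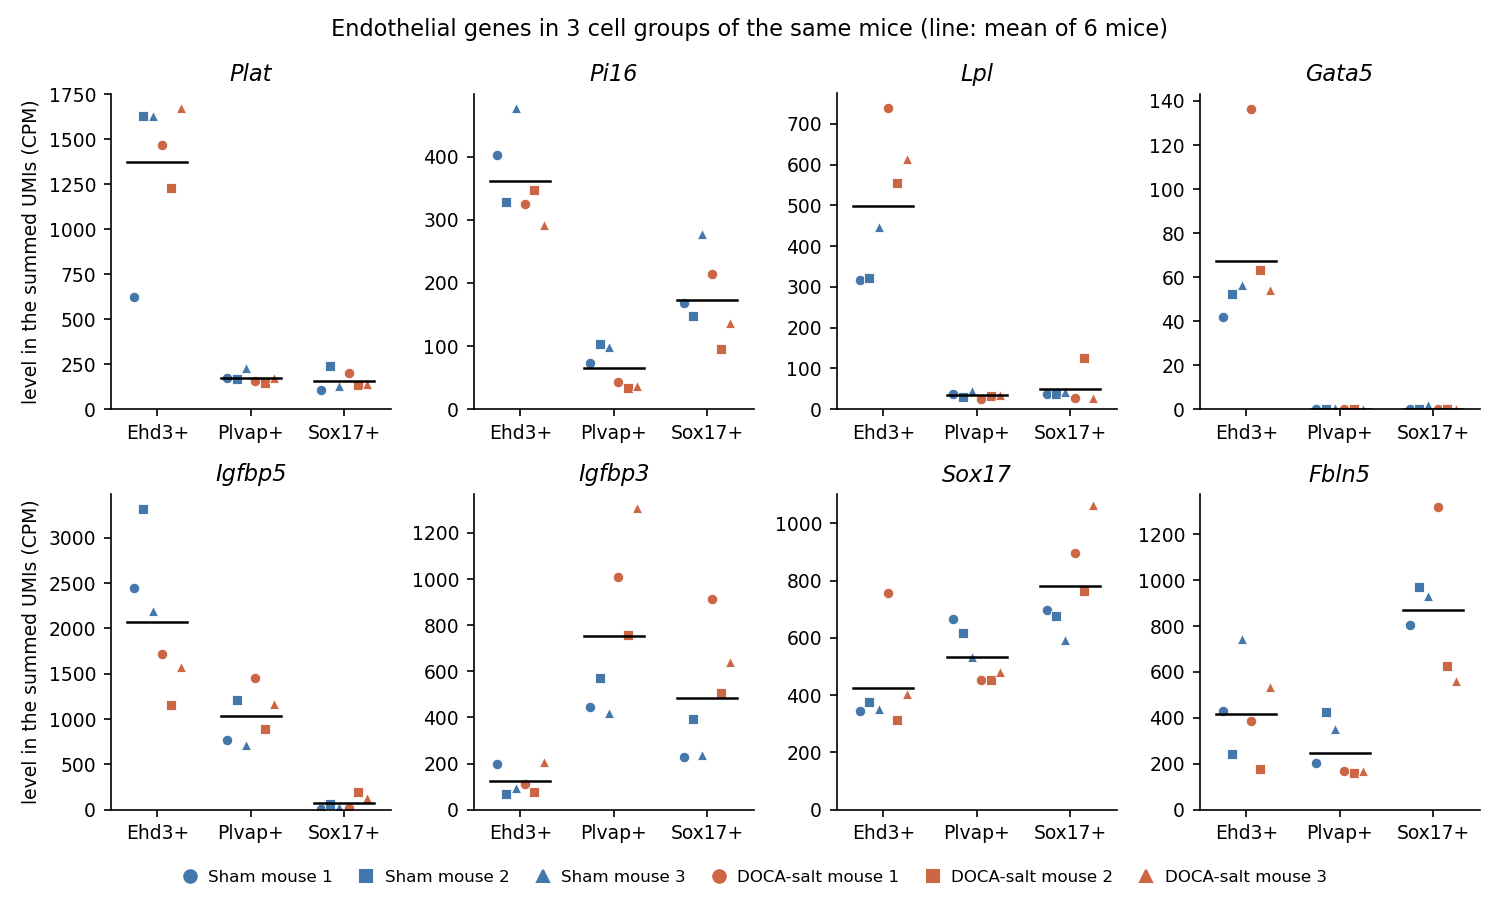
Level in CPM of the summed UMIs (y axis) of 8 genes in Ehd3-positive, Plvap-positive and Sox17-positive cells (x axis), 1 point per mouse with the mean of 6 mice as a line, Sham in blue and DOCA-salt in orange. Plat, Pi16, Lpl and Gata5 lie above every mouse of the other groups in the Ehd3-positive cells, and Igfbp3 lies below.

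Transcripts of other cell types were present to a degree that differed between mice. The proximal tubule gene Kap was detected in 186 of 190 cells, and proximal tubule markers summed to 2675 to 6444 CPM in Sham and 2393 to 8671 CPM in DOCA-salt mice. The 12 distal nephron markers summed to 416, 272 and 795 CPM in Sham and 851, 4682 and 1576 CPM in DOCA-salt mice, and the 10 macrophage markers to 28.6, 17.5 and 11.3 CPM and 49.0, 91.5 and 54.3 CPM. In both lists every DOCA-salt mouse was above every Sham mouse. For the distal list this rested on Spp1, with 76 UMIs in Sham mouse 3 and 84 in DOCA-salt mouse 1. Without Spp1, Sham mouse 3 lay above DOCA-salt mouse 1. In DOCA-salt mouse 2, 1 cell held 734 of the 737 Aqp2 and 618 of the 993 Spp1 UMIs. In DOCA-salt mouse 1, 1 cell held all 52 Aqp2 UMIs. The 13 podocyte markers summed to 1013 to 2384 CPM in Sham and 643 to 1364 CPM in DOCA-salt mice. The macrophage gene Cd68 was found in 1 cell. Of the 10 macrophage markers, 2 to 4 were detected per Sham mouse and 6 to 9 per DOCA-salt mouse. Fibroblast markers stayed at or below 46.2 CPM and lymphocyte markers at or below 3.50 CPM in each mouse.

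Of the 190 cells, 7 were rich in epithelial transcripts, by a limit of more than 5 UMIs of an epithelial marker. The largest, from DOCA-salt mouse 2, had 87010 UMIs, which is 19.0% of that mouse's sum, with 734 UMIs of Aqp2, 872 of Slc14a2, both collecting duct genes, and 1 of Ehd3. The same mouse held others with 36804 and 20110 UMIs, 8.02% and 4.38% of its sum, and 1 Ehd3 UMI each. Of the 7 endothelial genes, each of these cells of DOCA-salt mouse 2 held only 3. Levels below include the cells rich in epithelial transcripts, and values without them are given for some results only.

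The Ehd3-positive cells made up 0.382%, 0.527% and 0.553% of kept barcodes in the Sham mice and 0.276%, 0.307% and 0.216% in the DOCA-salt mice. The means were 0.488% ± 0.0919 and 0.267% ± 0.0462 (SD, n = 3 each), and the groups did not overlap. The exact two-sided permutation test gave p = 0.1, the smallest that 3 against 3 mice allow. Of the endothelial barcodes alone the cells were 8.29% ± 1.31 and 3.81% ± 0.834, and with 5 or more Ehd3 UMIs required they were 0.304% ± 0.0618 and 0.159% ± 0.0529 of kept barcodes, again without overlap (exact p = 0.1 each). The separation was lost with 2 or more Ehd3 UMIs required (0.348% and 0.190%, exact p = 0.2) and with proximal tubule UMIs limited to 0.05% (0.317% and 0.212%, exact p = 0.3).

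The difference was smaller after thinning and turned when Plvap was ignored. After every barcode was thinned to 1000 UMIs, 104 Sham and 103 DOCA-salt cells met the rule, and the shares were 0.424% ± 0.0949 and 0.394% ± 0.00306, which overlapped (exact p = 0.6). At full depth the numbers were 120 and 70, so the thinned set is not the same cells. Thinning can bring in cells that lose their UMIs of an excluded gene such as Plvap, and these were not counted. When cells with 5 or more Ehd3 UMIs were counted whatever their Plvap, the shares were 0.506% ± 0.0595 in Sham and 0.804% ± 0.223 in DOCA-salt mice, the opposite order. Cells with both Ehd3 and Plvap were 1.69% ± 0.268 of Sham and 3.49% ± 0.606 of DOCA-salt barcodes, at median depths of 3590.5 to 4383 and 7810 to 9284 UMIs. The part of depth and of Plvap detection in the lower share was not tested. A lower share also cannot tell fewer of these cells from more of the others.

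**Figure D3:**
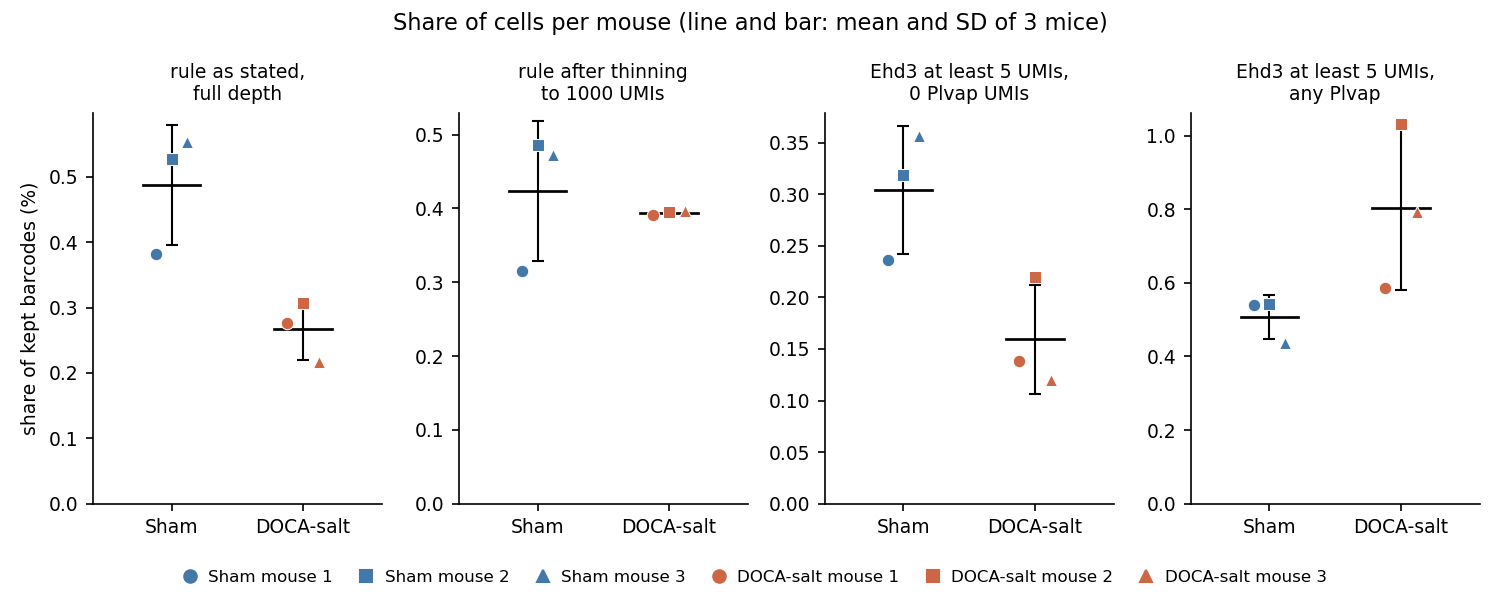
Share of kept barcodes in percent (y axis) in 3 Sham and 3 DOCA-salt mice (x axis) under the rule as stated, after thinning to 1000 UMIs, with 5 or more Ehd3 UMIs, and with 5 or more Ehd3 UMIs and any Plvap; points are mice, lines means and bars SDs. The DOCA-salt mice lie below the Sham mice under the stated rule (0.267% against 0.488%) and above them when Plvap is ignored (0.804% against 0.506%).

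Between Sham and DOCA-salt mice no gene of the Ehd3-positive cells passed the test across all genes. Of 6178 genes, 0 had an adjusted p below 0.05 in edgeR's quasi-likelihood test with Benjamini-Hochberg adjustment (0% called). Without adjustment 343 had p below 0.05 (5.55%), 192 higher and 151 lower. DESeq2 called 3 of the 6178, Stmn1 and Mal higher and Cyp26b1 lower. With no overlap between the groups, 6.01% of genes were higher and 3.80% lower in every DOCA-salt mouse, and genes without overlap below are read against these shares. The counts for gene groups below are at an unadjusted p below 0.05 and are read against the 5.55%. In data simulated at this size, 33.3% of genes changed 2-fold and 95.5% of those changed 4-fold were recovered, so a 2-fold change would mostly have been missed. The simulation gave every gene the same dispersion (0.0536), so the 95.5% does not carry over to genes that vary more between mice. Stmn1, Spp1 and Cyp26b1, with log2 changes of 2.40, 3.02 and -2.54, were above 4-fold by estimate and were not called. The absence of calls therefore does not exclude changes of that size. The median log2 change over all genes was 0.0090. For a given gene, fewer cells that hold it and less of it per cell cannot be told apart in summed UMIs.

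The gene with the lowest p was Stmn1 (chr4:134195021-134201882, + strand, GRCm39), which encodes stathmin, a regulator of microtubules that is high in dividing cells. It was 79.2, 27.9 and 27.2 CPM in Sham and 175, 244 and 331 CPM in DOCA-salt mice. All DOCA-salt mice were above all Sham mice, and the log2 change was 2.40 ± 0.39 (SE), with an adjusted p of 0.134 from edgeR. Without the 7 cells rich in epithelial genes the log2 change was 2.54 and the adjusted p 0.0179, and in the 117 cells with 5 or more Ehd3 UMIs it was 2.39 with an adjusted p of 0.0732. Stmn1 was singled out after its values were seen. Like Spp1, Cd74, P2rx7, Top2a and Srgap1, it overlaps a small annotated gene on the same strand, so a few of its reads could belong to that gene.

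Cells with transcripts of the division genes Mki67 or Top2a numbered 5 of 120 in Sham and 14 of 70 in DOCA-salt mice. The share expected after thinning to 1000 UMIs was 1.39% ± 1.46 and 5.84% ± 3.64 (exact p = 0.1, n = 3 each). Unthinned, the share was 4.51% ± 3.74 and 21.0% ± 12.5 (exact p = 0.2). Here and below, a thinned share of cells with a gene is the mean chance over cells of keeping at least 1 UMI. It was calculated without drawing UMIs. Proximal tubule cells, with 25 of 1443 in Sham and 5 of 657 in DOCA-salt mice, gave shares of 1.68% and 0.647% unthinned and 0.564% and 0.198% thinned. Plvap-positive cells gave 0.311% ± 0.0479 and 3.46% ± 0.482 thinned, without overlap (exact p = 0.1). Sox17-positive cells gave 0.841% ± 0.828 and 3.42% ± 3.63 thinned, with overlap (exact p = 0.3). Among the 117 cells with 5 or more Ehd3 UMIs the thinned share was 2.26% ± 2.37 and 4.90% ± 5.27 (exact p = 0.7), with 5 of 75 and 8 of 42 cells. The thinned share of cells with Stmn1 was 3.37% ± 0.954 in Sham and 14.7% ± 6.24 in DOCA-salt mice, and in proximal tubule cells 2.14% and 2.64%. In the other endothelium it was 3.54% ± 1.40 and 7.71% ± 1.15 in Plvap-positive and 3.73% ± 2.21 and 7.73% ± 2.12 in Sox17-positive cells, without overlap in either (exact p = 0.1 each). Unthinned, the share with Stmn1 was 24.3% ± 12.2 and 43.9% ± 11.1 in the Ehd3-positive cells, where the groups overlapped (exact p = 0.2), and in proximal tubule cells 10.3% and 12.9%. The unthinned Stmn1 groups also overlapped in Plvap-positive cells, at 18.3% ± 6.16 and 24.3% ± 5.72 (exact p = 0.4), and in Sox17-positive cells, at 17.7% ± 7.20 and 25.6% ± 7.80 (exact p = 0.3). In Sham mouse 1, 1 cell held 41 of the 43 Mki67 and Top2a UMIs.

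Of the 17 cell cycle genes, 7 were measured well enough to test. None passed, 2 had an unadjusted p below 0.05, both higher, and the median log2 change was 0.61 against 0.0090 over all genes. Ccnd1, the gene of cyclin D1, was 363, 531 and 399 CPM in Sham and 644, 619 and 637 CPM in DOCA-salt mice, without overlap, at a log2 change of 0.54 ± 0.23 (adjusted p = 0.873). Pcna, a replication factor gene, was 66, 108 and 67.9 CPM and 151, 111 and 133 CPM, at 0.70 ± 0.28 (adjusted p = 0.873). Top2a was uneven, with 39.6, 0 and 2.26 CPM in Sham and 35, 21.8 and 133 CPM in DOCA-salt mice. In Plvap-positive cells 7 of the 16 tested cell cycle genes passed in the higher and 1 in the lower direction, where 2.31% of all genes were called.

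Among the 12 glomerular endothelial markers outside the rule, 11 were tested and none passed, 2 had an unadjusted p below 0.05, both higher, and the median log2 change was 0.021. Lpl was 317, 321 and 446 CPM in Sham and 739, 556 and 613 CPM in DOCA-salt mice, so that the groups did not overlap, and its log2 change was 0.79 ± 0.24 (adjusted p = 0.592). In the 117 cells with 5 or more Ehd3 UMIs Lpl was 547, 485 and 751 CPM against 1734, 1193 and 1202 CPM, with a log2 change of 1.14 (adjusted p = 0.106). Smad6 was 117, 140 and 159 CPM in Sham and 245, 148 and 267 CPM in DOCA-salt mice, where DOCA-salt mouse 2 fell within the Sham range (log2 change 0.62 ± 0.28, adjusted p = 0.873). Gata5 was 41.8, 52.4 and 56.6 CPM and 137, 63.2 and 54.4 CPM, and only DOCA-salt mouse 1 stood well above the Sham mice. Lpl and Gata5 went in the opposite direction, at log2 changes of -0.80 and -0.90, in cells with 5 or more Ehd3 UMIs and any Plvap. Of that set 169 of 211 DOCA-salt cells and 50 of 125 Sham cells held Plvap, the part of which in these directions was not tested. Among those Plvap-holding cells Lpl was found in 18.9% of the DOCA-salt and 56.0% of the Sham cells. Plat, Pi16 and Hecw2 overlapped between the groups.

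**Figure D4:**
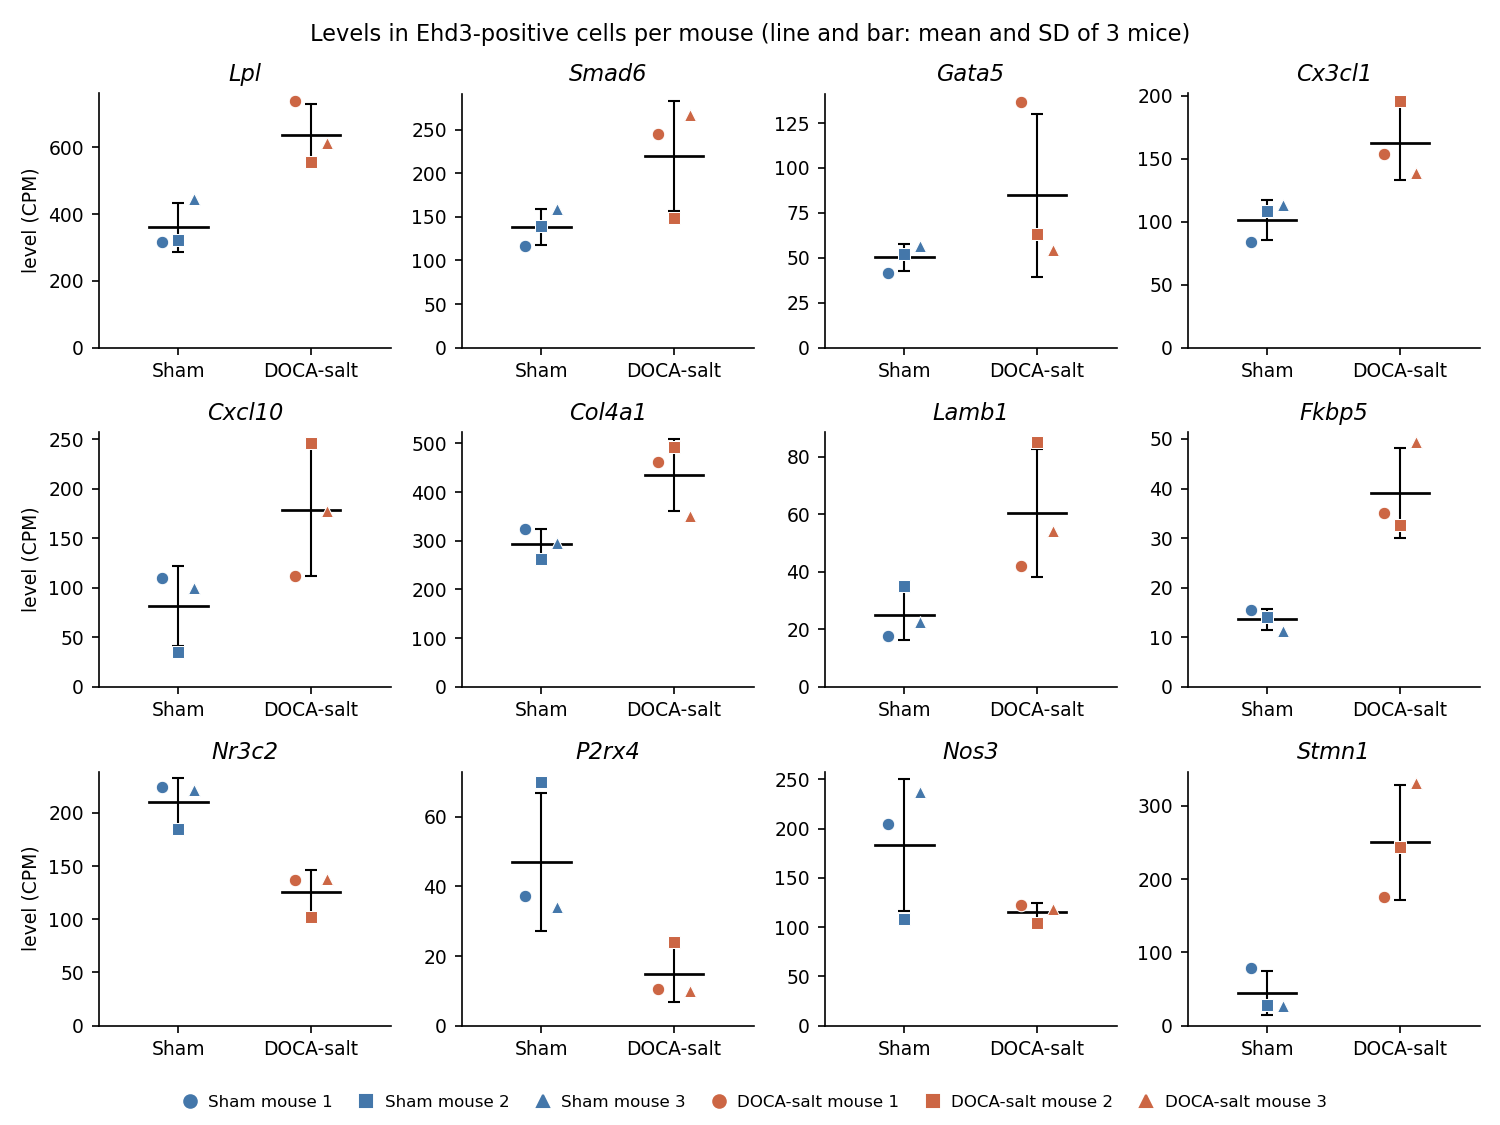
Level in CPM (y axis) of 12 genes in Ehd3-positive cells of 3 Sham and 3 DOCA-salt mice (x axis), with points for mice, lines for means and bars for SDs. Lpl, Cx3cl1, Col4a1, Lamb1, Fkbp5 and Stmn1 are higher and Nr3c2 and P2rx4 lower in every DOCA-salt mouse, and none has an adjusted p below 0.05.

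The receptors for the steroid given to these mice were both present. Nr3c2, the mineralocorticoid receptor gene, was 224, 185 and 222 CPM in Sham and 137, 102 and 138 CPM in DOCA-salt mice. Every DOCA-salt mouse was below every Sham mouse, at a log2 change of -0.79 ± 0.25 (adjusted p = 0.604). In Plvap-positive cells the change of Nr3c2 was -0.84 and passed (adjusted p = 0.0122). In the 117 cells with 5 or more Ehd3 UMIs Nr3c2 was 111, 127 and 170 CPM in Sham and 142, 79.9 and 108 CPM in DOCA-salt mice, which overlapped. Nr3c1, the glucocorticoid receptor gene, was 283 ± 18.3 CPM in Sham and 283 ± 73.3 CPM in DOCA-salt mice.

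Of the 22 mineralocorticoid and glucocorticoid response genes, 16 were tested and none passed, with 1 higher and 1 lower at an unadjusted p below 0.05. Sgk1, a kinase gene induced by both receptors, was 787, 1390 and 856 CPM in Sham and 1072, 994 and 1151 CPM in DOCA-salt mice, and the groups overlapped (log2 change 0.067 ± 0.25). Tsc22d3, which encodes the glucocorticoid-induced leucine zipper protein, was 90.2, 248 and 95.1 CPM and 259, 105 and 168 CPM. Fkbp5, whose product binds the glucocorticoid receptor complex, was 15.4, 14 and 11.3 CPM in Sham and 35, 32.7 and 49.4 CPM in DOCA-salt mice, without overlap, on 16 and 35 UMIs in all (log2 change 1.44 ± 0.44, adjusted p = 0.592). Hsd11b2, the gene of the enzyme that inactivates glucocorticoids, was 6.60 to 72.5 CPM and 4.94 to 98.1 CPM, with 206 and 109 CPM over all kept barcodes, where distal nephron cells express it.

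The study asked about signalling by extracellular ATP in kidney injury. Of 18 such genes only 5 were tested in these cells, and none passed. P2rx4, an ATP-gated channel gene, was 37.4, 69.9 and 34.0 CPM in Sham and 10.5, 24.0 and 9.88 CPM in DOCA-salt mice, without overlap (log2 change -1.46 ± 0.48, adjusted p = 0.667, on 52 and 16 UMIs). P2rx7, the ATP receptor gene linked to pyroptosis, was 28.6, 27.9 and 36.2 CPM in Sham and 24.5, 24.0 and 39.5 CPM in DOCA-salt mice, and the groups overlapped (log2 change -0.17 ± 0.40). P2rx7 was detected in 27 of 120 and 19 of 70 cells, a mean of 22.5% ± 8.41 and 27.1% ± 1.88 per mouse. The share expected after thinning to 1000 UMIs was 2.43% ± 0.867 and 2.99% ± 1.02 (exact p = 0.5, n = 3 each). In the 117 cells with 5 or more Ehd3 UMIs it was 21.4% ± 7.83 and 34.4% ± 5.09 unthinned, without overlap (exact p = 0.1), and 2.82% ± 1.23 and 4.01% ± 1.08 thinned, with overlap (exact p = 0.4). Their pooled P2rx7 level was 32.6 CPM in Sham and 41.5 CPM in DOCA-salt mice, the opposite order to the log2 change in all 190 cells. Proximal tubule cells, taken as background, gave 0.121% and 0.517% unthinned at median depths of 2414 to 5600 UMIs, and 0.0150% and 0.147% thinned. P2ry1, a receptor for ADP, was 39.6 to 49.8 CPM in Sham and 52.3 to 74.1 CPM in DOCA-salt mice. Over all mice of a group, the channel gene Panx1 gave 3 UMIs in each group, P2ry6 gave 1 in each and Adora2a gave 11 in each. Adora2b gave 1 UMI, in a Sham mouse. No change in these 4 genes was detectable at this depth.

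The inflammasome and pyroptosis genes ranged from undetected to well measured. Nek7, whose product binds NLRP3, was 198, 248 and 138 CPM in Sham and 137, 113 and 163 CPM in DOCA-salt mice, which overlapped (log2 change -0.53 ± 0.28, adjusted p = 0.952). The caspase genes Casp8 and Casp4 gave 91 and 80 UMIs in Sham mice and 67 and 63 in DOCA-salt mice. No UMI of Nlrp3 was found (0 in 6 mice). Il1b gave 2 UMIs, both in Sham mice, and Casp1 gave 5 in Sham and 7 in the other group. Gsdmd, which encodes the pore-forming protein of pyroptosis, had 28 and 16 UMIs. Of 16 genes 6 were tested and none passed, also before adjustment.

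Genes of vessel tone overlapped for the most part. Nos3, the endothelial nitric oxide synthase gene, was 205, 108 and 238 CPM in Sham and 123, 105 and 119 CPM in DOCA-salt mice, and Sham mouse 2 lay within the DOCA-salt range (log2 change -0.72 ± 0.30, adjusted p = 0.873). Edn1, which encodes the vasoconstrictor endothelin-1, was 218, 126 and 179 CPM and 231, 131 and 208 CPM. Of 25 vasoactive genes 16 were tested and none passed, with 2 lower at an unadjusted p below 0.05. The flow-induced transcription factor genes Klf2 and Klf4 had log2 changes of 0.043 ± 0.25 and -0.051 ± 0.23, and Klf2 was 2846 to 4300 CPM in Sham and 2685 to 4335 CPM in DOCA-salt mice. None of the 13 tested genes of shear stress and mechanosensing had an unadjusted p below 0.05.

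Of 21 genes of adhesion and leukocyte recruitment, 12 were tested, none passed, and 4 had an unadjusted p below 0.05, all higher, with a median log2 change of 0.23. Cx3cl1, whose product binds the receptor of monocytes, was 83.6, 108 and 113 CPM in Sham and 154, 196 and 138 CPM in DOCA-salt mice, and the chemokine gene Cxcl10 110, 34.9 and 99.6 CPM and 112, 246 and 178 CPM. Neither overlapped between the groups, and the log2 changes were 0.68 ± 0.26 (adjusted p = 0.840) and 1.09 ± 0.37 (adjusted p = 0.738). Both genes were highest in DOCA-salt mouse 2, and their levels without its cells rich in epithelial transcripts are not given. Vcam1 and Icam1, the adhesion receptor genes, overlapped, with Vcam1 at 66.4 to 70.2 CPM in Sham and 28.0 to 113 CPM in DOCA-salt mice and Icam1 at 112 to 207 CPM and 133 to 203 CPM. Cd74, the invariant chain gene of class II presentation, was 19.8, 10.5 and 20.4 CPM and 28.0, 52.3 and 69.2 CPM (log2 change 1.44 ± 0.44, adjusted p = 0.592), beside 301 and 890 CPM over all kept barcodes and the macrophage marker sums given above, whose part was not tested.

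Of the 27 genes of basement membrane and matrix 24 were tested and none passed. Of these, 4 had an unadjusted p below 0.05 in the higher and 1 in the lower direction, with a median log2 change of 0.13. The collagen IV genes Col4a1 and Col4a2 were 323, 262 and 294 CPM and 161, 150 and 149 CPM in Sham and 462, 493 and 351 CPM and 207, 268 and 237 CPM in DOCA-salt mice. The log2 changes were 0.55 ± 0.23 and 0.61 ± 0.23. Lamb1, a laminin gene, was 17.6, 34.9 and 22.6 CPM and 42.0, 85.0 and 54.3 CPM (log2 change 1.35 ± 0.40, adjusted p = 0.592), and Agrn, the gene of the proteoglycan agrin, 41.8, 31.4 and 61.1 CPM and 70.0, 102 and 84.0 CPM. The groups did not overlap for Col4a1, Col4a2, Lamb1 and Agrn. All of these were highest in DOCA-salt mouse 2, and their levels without its cells rich in epithelial transcripts are not given. Igfbp5, an insulin-like growth factor binding protein gene, was the gene in the lower direction, with 2446, 3318 and 2190 CPM in Sham and 1716, 1157 and 1576 CPM in DOCA-salt mice and a log2 change of -0.86 ± 0.25 (adjusted p = 0.592). In the Plvap-positive cells of the same mice 10 of 26 genes of this list passed, all higher, where 240 of all 10387 genes passed (2.31%).

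Cxcl12 and Tgfb2, which encode a chemokine and a transforming growth factor, had an unadjusted p below 0.05 in the lower direction. Cxcl12 was 145, 83.8 and 70.2 CPM in Sham and 38.5, 41.4 and 69.2 CPM in DOCA-salt mice (log2 change -1.09 ± 0.35, adjusted p = 0.637), and Tgfb2 was 321, 185 and 129 CPM and 151, 52.3 and 79.0 CPM (log2 change -1.22 ± 0.39, adjusted p = 0.648), with an overlap for Tgfb2. In the Sox17-positive cells Cxcl12 and Tgfb2 were 169 and 178 CPM, against 74.7 and 153 CPM in the Ehd3-positive cells.

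Spp1, Mal and Cyp26b1 each passed in at least 1 alternative and were chosen after their values were seen. Cyp26b1, whose product degrades retinoic acid, was 174, 311 and 99.6 CPM in Sham and 52.5, 8.72 and 49.4 CPM in DOCA-salt mice (log2 change -2.54 ± 0.52, adjusted p = 0.341). In the 117 cells with 5 or more Ehd3 UMIs it was 272, 479 and 166 CPM against 101, 18.8 and 98.6 CPM, again without overlap. Spp1, the osteopontin gene, was 44.0, 168 and 172 CPM and 294, 2164 and 613 CPM, beside 1069 and 4483 CPM over all kept barcodes, and its log2 change went from 3.02 ± 0.63 (adjusted p = 0.341) to 2.35 (adjusted p = 0.0296) without the 7 cells rich in epithelial genes. Mal, a gene of membrane rafts, was 112, 108 and 113 CPM and 273, 569 and 193 CPM in the 190 cells and 80.3, 48.5 and 125 CPM and 201, 70.5 and 118 CPM in the 117.

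The remaining groups of genes held no call either. Of 23 interferon-stimulated genes 22 were tested, 2 had an unadjusted p below 0.05, both higher (Ifit3 and Oasl2), and the median log2 change was 0.26. Of 18 genes of lipid uptake and handling 10 were tested and 3 were higher before adjustment, Lpl, Fabp5 and Gpihbp1, the last encoding the anchor that holds lipoprotein lipase on capillaries, with a median of 0.37. The 14 tested genes of VEGF and angiopoietin signalling had a median of -0.082, the 8 of the Notch pathway -0.13 and the 22 endothelial transcription factors 0.064, with none past an unadjusted p of 0.05. Of the 13 arterial markers 3 were lower before adjustment, Cxcl12, Fbln2 and Ltbp4, the last pair coding for elastic fibre proteins. BMP and TGF-beta signalling had 2 higher and 2 lower of 19, coagulation 1 higher of 10, the glycocalyx 1 higher of 11, the capillary and venous markers 1 higher of 7 and the dissociation response 1 higher of 22. None of 10 class I genes was past an unadjusted p of 0.05. Among other cell types, 3 of 5 tested podocyte markers were lower and 2 of 6 distal nephron markers higher before adjustment, and no macrophage, lymphocyte, fibroblast, red cell or platelet marker was high enough to test.

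The last comparison tested whether DOCA-salt changed genes differently in Ehd3-positive and in Plvap-positive cells of the same mice. In the Plvap-positive cells alone 240 of 10387 genes passed (2.31%), 171 higher and 69 lower. The difference of the changes passed for 13 of 10011 genes (0.130%), of which 10 were lower and 3 higher in the Ehd3-positive cells relative to the Plvap-positive cells. In simulated data of this size, again with the same dispersion for every gene, 60.0% of genes with a 4-fold and 7% of those with a 2-fold difference were recovered. Leaving out Sham mouse 1 gave 0 genes and leaving out DOCA-salt mouse 3 gave 19.

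Piezo2, a mechanically gated channel gene, was, in the Ehd3-positive cells, 156, 168 and 149 CPM in Sham and 123, 120 and 148 CPM in DOCA-salt mice. In the Plvap-positive cells it went from 61.7, 87.8 and 55.0 CPM to 199, 306 and 284 CPM, and the difference of the log2 changes was -2.27 ± 0.25 (adjusted p = 0.00142). Col15a1, a basement membrane collagen gene, was 99.0, 122 and 129 CPM and 112, 87.2 and 69.2 CPM in Ehd3-positive against 29.5, 49.3 and 18.6 CPM and 101, 137 and 130 CPM in Plvap-positive cells, a difference of -2.37 ± 0.37 (adjusted p = 0.0276). The differences of Piezo2 and Col15a1 also passed without the 7 cells rich in epithelial genes and in the cells with 5 or more Ehd3 UMIs. Both settings kept the limit of 0 Plvap UMIs, and the difference was not tested without it. With any number of Plvap UMIs the log2 change of Col15a1 in Ehd3-positive cells was 1.48 in place of -0.39.

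The GTPase-activating protein genes Srgap1 and Arhgap18 and the fatty acid binding protein gene Fabp5 also passed, with differences of -1.86, -1.72 and -1.68. Fabp5 was 71.3 ± 23.7 CPM in Sham and 115 ± 33.3 CPM in DOCA-salt mice in Ehd3-positive cells, and 103 ± 26.6 and 542 ± 19.6 CPM in Plvap-positive cells. Arhgap18 was 57.3 ± 3.32 and 31.7 ± 2.89 CPM in Ehd3-positive and 92.0 ± 7.05 and 165 ± 13.9 CPM in Plvap-positive cells. Gm30382, a gene with no assigned function, differed by -2.69, and Scin, which encodes the actin-severing protein scinderin, by 1.74. Nid1, Lamc1 and Igfbp5 lay outside the 10 largest differences and are given because they passed. Nid1, a linker of laminin and collagen IV, was 84.0 ± 9.29 and 81.1 ± 6.04 CPM in Ehd3-positive and 46.3 ± 2.95 and 127 ± 4.63 CPM in Plvap-positive cells, a difference of -1.51 ± 0.26 (adjusted p = 0.0441).

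The remaining 3 genes rested on 1 or 2 cells each. Slc14a2 was 0 to 4.94 CPM in 5 mice and 1966 CPM in DOCA-salt mouse 2, where 1 cell held 872 UMIs of it, and the same cell held 734 of the 737 Aqp2 UMIs of that mouse. In DOCA-salt mouse 1 another cell held all 52 Aqp2 UMIs. Egfem1 was 38.5 CPM in Sham mouse 3, where 1 cell held 17 UMIs, and 0 to 4.36 CPM in the other mice. Without the 7 cells rich in epithelial genes only Piezo2, Col15a1 and Igfbp5 of the 13 were called, so Srgap1, Arhgap18, Fabp5, Gm30382, Scin, Nid1 and Lamc1 lost their calls there too, and also with 5 or more Ehd3 UMIs required. Their log2 differences kept their sign under the 11 alternatives run and ranged from -3.17 to -2.42 for Gm30382, -2.04 to -1.12 for Srgap1, -2.29 to -1.38 for Arhgap18, -1.93 to -1.40 for Fabp5, 1.24 to 2.76 for Scin, -1.59 to -1.22 for Nid1 and -1.42 to -1.23 for Lamc1. Egfem1 was still called with 5 or more Ehd3 UMIs required (adjusted p = 0.0433), and Igfbp5 was not (adjusted p = 0.0552).

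**Figure D5:**
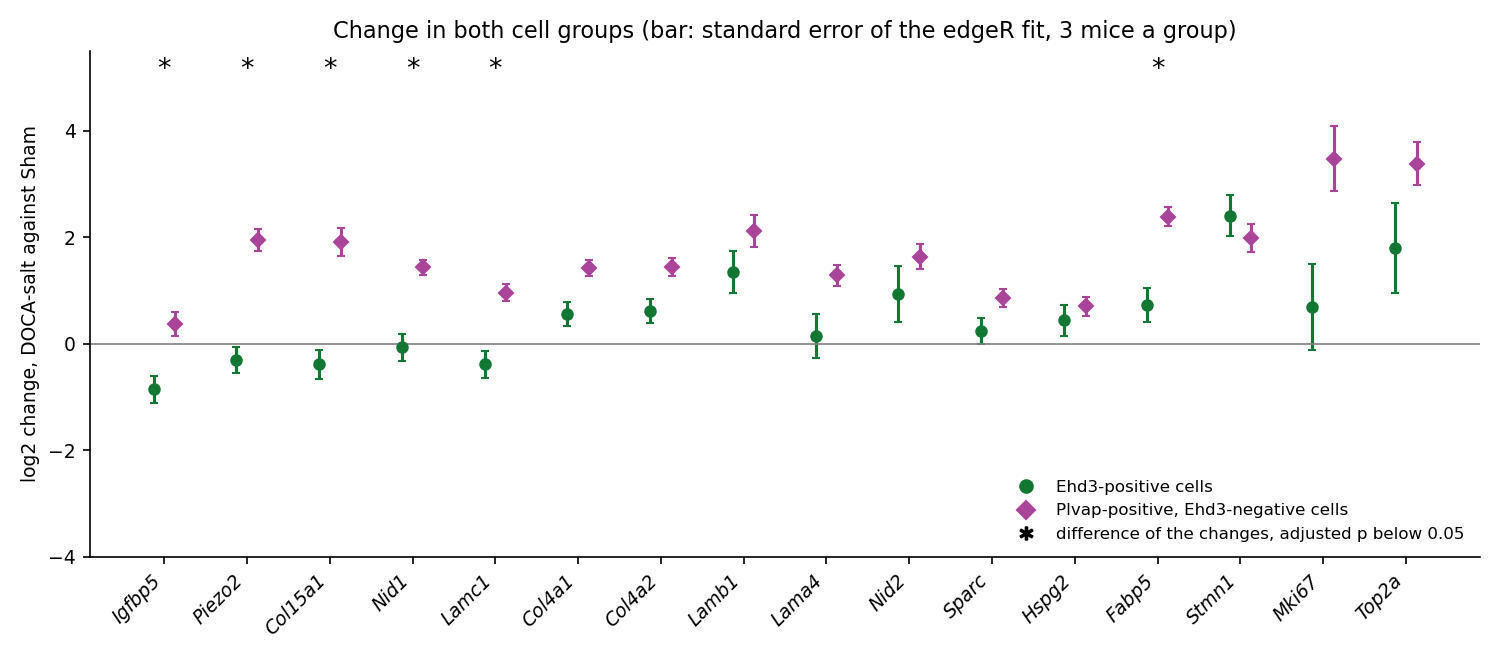
Log2 change of DOCA-salt against Sham (y axis) of 16 genes (x axis) in Ehd3-positive cells (circles) and Plvap-positive cells (diamonds), with standard errors of the edgeR fit and an asterisk where the difference of the changes has an adjusted p below 0.05. Piezo2, Col15a1 and Nid1 lie near or below 0 in Ehd3-positive cells and at 1.94, 1.92 and 1.44 in Plvap-positive cells.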

How the data were processed

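The authors deposited 1 filtered matrix of UMI counts per gene and cell barcode for each mouse, made with Cell Ranger on GRCm39 (version 9.0.0 in the submitters' processing notes, 8.0.1 in the matrix headers; annotation release not given in the sources used here). The counts were used as deposited. Members, gene lists and alternatives were chosen with earlier results of these data known. UMIs of the chosen cells were summed per mouse and tested with edgeR 4.0.16 (R 4.3.3; filterByExpr, TMM, quasi-likelihood F test, Benjamini-Hochberg, threshold 0.05), the difference from Plvap-positive cells with the mouse as a block. DESeq2 1.42.0 was an alternative, and shares were compared with exact two-sided permutation tests (SciPy 1.17.1). No doublet caller was used, since the rule excludes other lineages; Scrublet scores (Scanpy 1.11.5) were an alternative, and an assumed 0.8% of doublets per 1000 barcodes marked 14 of the 190 cells. Scripts were tested on simulated data. Each mouse is a separate animal and 1 replicate, and totals were 202405 to 458769 UMIs per mouse. Standard errors of log2 changes come from the edgeR fit over mice, and only the upper bounds for 0 UMIs cover counting error alone. Alternatives added after seeing the data are named as such. Genes named were the rule genes, the glomerular markers, a fixed set of receptor, inflammasome and vascular genes, uncalled members of 34 lists, and up to 10 genes in the test of the difference, and any other is said to be chosen after its values were seen. Some marker genes used in these limits are not reported here.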

Additional observations from a re-analysis of the deposited data

Results flagged for a closer look

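The 13 genes whose change differed between Ehd3-positive and Plvap-positive cells (edgeR's quasi-likelihood test of the difference, mouse as a block, adjusted p below 0.05) are given with the difference of the log2 changes, negative where DOCA-salt raised the gene less, or lowered it more, in Ehd3-positive cells. Slc14a2 differed by 8.48 (adjusted p = 0.00142), Aqp2 by 6.70 (adjusted p = 0.0276) and Egfem1 by -5.84 (adjusted p = 0.0276), of which Slc14a2 and Egfem1 rested on 1 cell each and Aqp2 on 2 cells. Gm30382 differed by -2.69 (adjusted p = 0.0441), Col15a1 by -2.37 (adjusted p = 0.0276) and Piezo2 by -2.27 (adjusted p = 0.00142). Srgap1 differed by -1.86, Scin by 1.74, Arhgap18 by -1.72, Fabp5 by -1.68, Nid1 by -1.51 and Lamc1 by -1.35, all with an adjusted p of 0.0441. Igfbp5 differed by -1.24 (adjusted p = 0.00235), being lower in 3 of 3 DOCA-salt mice in Ehd3-positive cells and overlapping in Plvap-positive cells (adjusted p = 0.526).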

How the results depend on the processing

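The count of 0 changed genes became 1 with proximal tubule UMIs at most 0.05% and with the highest Scrublet scores removed (Stmn1 both times), 3 with DESeq2, 211 with no filter on low counts (136 highest in DOCA-salt mouse 2) and 907 with any number of Plvap UMIs. Alternatives chosen after the data were seen gave 2 without the 7 cells rich in epithelial genes (Stmn1 and Spp1) and 558 with 5 or more Ehd3 UMIs and any Plvap. Leaving out 1 mouse gave 0 to 6: Stmn1 without Sham mouse 1, 2 genes, Magi2 among them, without Sham mouse 2, and Lcn2, Fxyd4, Dlk1, Aqp2, Krt18 and Frmpd4 without DOCA-salt mouse 3. The 13 differences from Plvap-positive cells became 167 with no filter, 3 without cells rich in epithelial genes, 3 with 5 or more Ehd3 UMIs, and 0 to 19 leaving out 1 mouse, 0 without Sham mouse 1 and 19 without DOCA-salt mouse 3. The log2 ratio of the shares, -0.87, became 0.79 with any Plvap and 0.67 with 5 or more Ehd3 UMIs and any Plvap. An edgeR test of cell numbers without a replicate block, also added after the data were seen, gave -0.86. It passed its threshold, and the test with a block did not.

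The replicate numbers do not pair the mice. The deviations of Sham and DOCA-salt mice with the same number correlated at -0.063, -0.11 and -0.091. A replicate block gave 1 changed gene (Spp1, 2.73) and 1 difference (Piezo2).

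The following named genes, none of them called by edgeR in the 190 cells, changed direction. Among them Edn1, Klf4, Vcam1, Hsd11b2 and Col15a1 passed the threshold in 1 alternative each and Icam1 in 2, whatever the direction there. With any Plvap the log2 changes were -0.81 for Edn1, -0.32 for Klf2, 0.64 for Icam1, 0.085 for Nr3c1, -1.67 for Hsd11b2, -0.72 for Lpl, -1.0 for Gata5, -0.36 for Cx3cl1, -0.31 for Cd74 and 1.48 for Col15a1. With 5 or more Ehd3 UMIs and any Plvap they were 0.0023 for Nos3, -0.20 for Klf2, 1.27 for Icam1, 0.24 for Nr3c1, -0.80 for Lpl, -0.90 for Gata5, -0.066 for Smad6, -0.24 for Cx3cl1, -0.025 for Pcna, -0.042 for Ccnd1 and 0.50 for Col15a1. With at least 2 Ehd3 UMIs they were 0.0030 for Klf4, 0.46 for Icam1 and 0.33 for Nr3c1, and with at least 5 they were 0.11, 0.50 and 0.17. Without cells rich in epithelial genes Klf4 was 0.021, Icam1 0.16 and Nr3c1 0.055, Icam1 was 0.040 at 0.05% proximal tubule UMIs, Edn1 -0.025 with cells holding podocyte transcripts left out and Sgk1 -0.010 after Scrublet. Leaving out 1 mouse moved Edn1 from -0.10 to 0.29, Klf2 from -0.10 to 0.23, Klf4 from -0.18 to 0.066, Vcam1 from -0.40 to 0.55, Icam1 from -0.31 to 0.12, Nr3c1 from -0.26 to 0.096, Sgk1 from -0.098 to 0.37, Tsc22d3 from -0.10 to 0.90 and Hsd11b2 from -0.30 to 2.29. The causes were not tested. With 18 to 48 cells per mouse, most 2-fold changes would be missed (33.3% were recovered in simulated data).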

Other observations

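In the 117 cells with 5 or more Ehd3 UMIs, tested alone after the data were seen, 0 of 3860 genes passed in edgeR, 271 had an unadjusted p below 0.05 (7.02%) and the lowest adjusted p was 0.0732. The levels of Smad6 there were 134, 176 and 182 CPM in Sham and 385, 296 and 453 CPM in DOCA-salt mice, of Cx3cl1 91.8, 163 and 153 CPM and 251, 333 and 237 CPM, and of Ccnd1 578, 757 and 642 CPM and 1232, 1226 and 1222 CPM, without overlap for the 3 genes. How many of the 3860 genes had no overlap in these cells was not counted, so no excess can be read from these 3. Igfbp5 was 4203, 5185 and 3777 CPM and 3619, 2485 and 2937 CPM. Kap, a proximal tubule gene, was 3790, 915 and 2012 CPM and 612, 296 and 660 CPM in the same cells, and its part was not tested.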
